A study of Ovis aries with 20 samples.

Results

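The 41 genes described here encode enzymes that write or erase methyl groups on histone lysines, together with SUZ12 and EED, the non-catalytic core subunits of the Polycomb repressive complex PRC2. They were taken by gene name from a table of 28524 sheep genes, 24823 of which had reads in some library. All 41 names were found, and all 41 passed the filter on low values in every comparison. The comparisons ask how these genes differ between the granulosa and theca layers of the adult follicle, and whether either layer differs in sheep exposed to testosterone before birth.

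Granulosa cells line the antral follicle and convert androgen to estradiol, and theca cells surround them and make androgen. Both layers were microdissected from 14 µm ovarian cryosections of 21-month-old sheep, with several antral follicles pooled per layer and animal, so that a library is a mean over follicles. The prenatal T group was born to ewes that received 100 mg of testosterone propionate (1.2 mg/kg) by intramuscular injection, 2 injections each week between gestation days 30 and 90. The control group was born to ewes given vehicle. All animals had their cycles synchronized with prostaglandin F2α, 10 mg in each of 2 injections spaced 11 days apart, and the ovaries were removed 18 hours after the last one. Theca libraries came from 5 control and 5 prenatal T sheep, and granulosa libraries from 4 control and 5 prenatal T sheep. Granulosa cells of control sheep 139 were not analysed here.

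Methylation of histone lysines is laid down by methyltransferases with a SET domain, or by DOT1L, which lacks one, and is removed by the flavin-dependent KDM1 enzymes and the Jumonji-domain KDM enzymes. Methylation of H3K4, H3K36 and H3K79 is found mainly at active promoters, enhancers and transcribed gene bodies. Methylation of H3K27 by PRC2 and of H3K9 by the SUV39H, SETDB and EHMT enzymes is found mainly at silent genes and heterochromatin. In granulosa cells such marks are known to change as follicles grow and luteinize.

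Values are normalized counts, the reads of a gene divided by a size factor of its library. Whole reads could be recovered, at 12.7 to 26.0 M reads per library, and the 41 genes held 0.536 to 0.730% of the reads in granulosa and 0.472 to 0.650% in theca. Depth per group (mean ± SD) was 19.8 ± 5.25 M for the 4 control and 14.2 ± 1.38 M for the 5 prenatal T granulosa libraries. For theca it was 15.9 ± 1.48 M for the 5 controls and 14.7 ± 0.582 M for the 5 prenatal T animals. Outside sheep 209, the FSH receptor gene FSHR was at 1105 to 3281 in granulosa and 120 to 697 in theca, and CYP17A1, the androgen-synthesis enzyme of theca, at 109 to 248 and 585 to 2523. Both genes were thus detected in both layers.

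Both libraries of prenatal T sheep 209 stood apart. FSHR, AMH and CYP17A1 were at 0 reads in both. Its granulosa library correlated with the other granulosa libraries at no more than r = 0.755 across genes, and its 8 epithelial markers averaged 12.76 on the log2 scale against 3.22 to 6.46 in the others. For its theca library the highest r to other theca libraries was 0.811, and the epithelial markers averaged 10.53 against 3.05 to 4.86. Its mean over 12 proliferation markers was 9.07 in granulosa against 9.97 to 11.08 in the other animals, and 7.64 in theca against 8.49 to 9.96. The main counts of genes are given both with and without this animal. Single differences include it unless stated otherwise. Because these are bulk samples, a lower share of a cell type and less RNA per cell cannot be told apart.

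Between the layers, 25 of the 41 genes passed the test, 19 higher in granulosa and 6 lower. The H3K36 methyltransferase NSD2 showed the highest granulosa excess, at 2.07-fold, followed by the H3K9 methyltransferase SUV39H1 at 1.67-fold and the PRC2 catalytic subunit EZH2 at 1.56-fold. The methyltransferase SETD7 was 2.08-fold higher in theca, and EZH1, the alternative catalytic subunit of PRC2, was 1.33-fold higher in theca. The test was limma on log2(value + 1) in the 9 sheep with both layers, with the animal as a block and Benjamini-Hochberg adjustment over all genes. Of all 16169 genes tested, 56.7% were called, 28.8% higher and 27.8% lower in granulosa, so a call was the usual outcome for any gene. The median difference was 0.10 over the 41 genes and 0.03 over all genes. Without sheep 209, 27 of the 41 genes were called, 19 higher and 8 lower, against 62.8% of 15923 genes (31.9% higher and 30.9% lower). When the animal was not used as a block, 33.1% of all genes were called and 9 of the 41: DOT1L, KMT2D, NSD2, NSD3, SETD7, SETDB1, SETDB2, SMYD2 and SUV39H1.

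**Figure D1:**
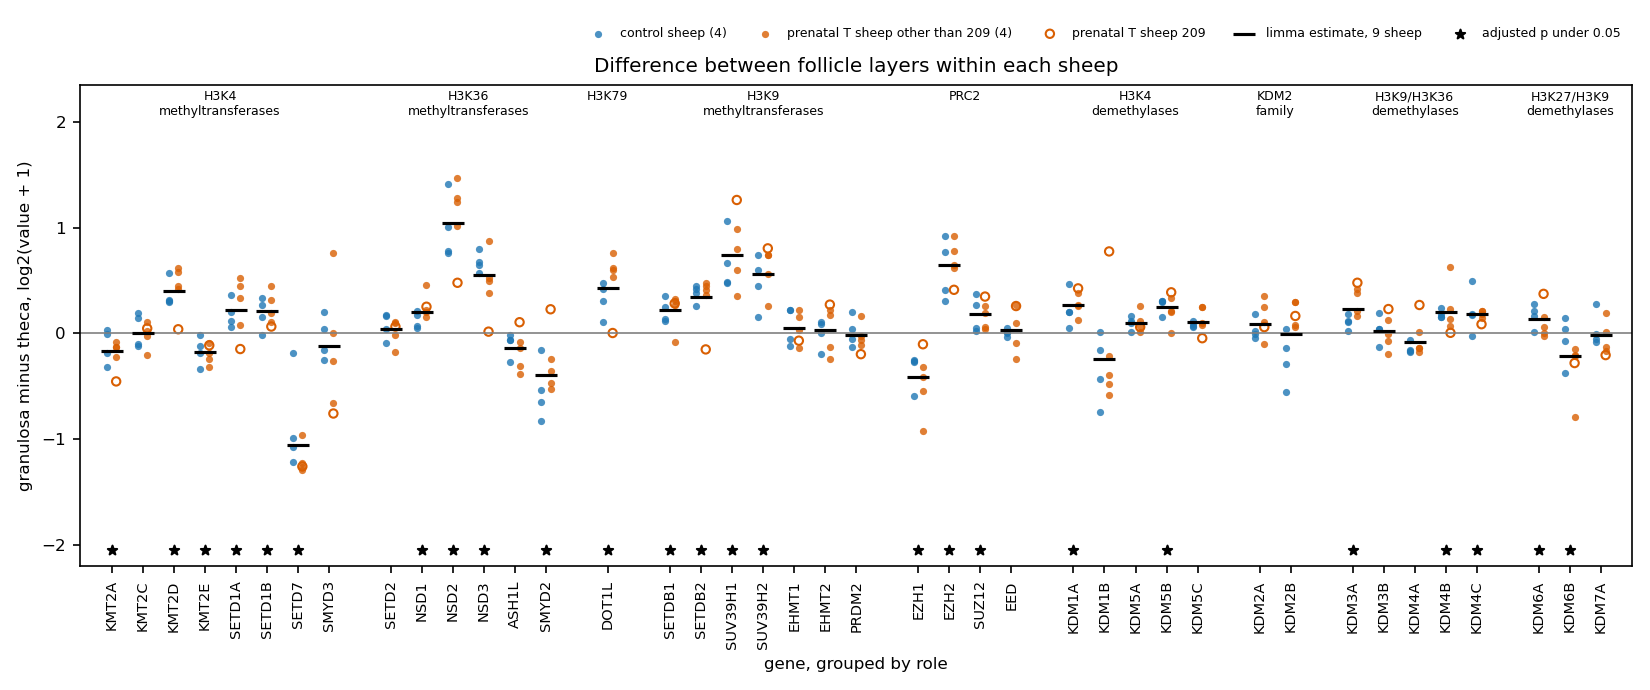
Difference between layers, granulosa minus theca in log2(value + 1), for each of the 41 genes grouped by role. Each point is 1 of 9 sheep, the open circle is sheep 209, the bar is the limma estimate and a star marks an adjusted p under 0.05. All 9 sheep lie above 0 for NSD2, EZH2 and SUV39H1 and below 0 for SETD7 and EZH1.

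NSD2 mono- and dimethylates H3K36. In control granulosa its normalized count was 4096 in sheep 224, 4979 in sheep 244, 3160.4 in sheep 246 and 5359 in sheep 268, and in control theca 2390.5, 1875, 1865 and 2677 in the same order, with 1952 in sheep 139. In prenatal T granulosa it was 1406 in sheep 209, 4246 in sheep 210, 4299.7 in sheep 230, 5267 in sheep 276 and 3451 in sheep 315. In prenatal T theca it was 1009.7, 1794, 1557, 2171 and 1707 in the same order. The granulosa value was the higher one in 9 of 9 sheep, and without sheep 209 every granulosa library lay above every theca library, as held for 5.74% of genes in that direction. The log2 difference was 1.05 ± 0.10 (SE; limma adjusted p = 6.9e-06), and 1.12 ± 0.08 without sheep 209. NSD2 was the only one of the 41 genes whose layers did not overlap in that set, and none of the 41 was wholly lower in granulosa, beside 11% of genes. With all libraries none of the 41 separated, beside 0.885% of genes wholly higher and 4.59% wholly lower in granulosa.

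The related H3K36 methyltransferases were higher in granulosa by less. NSD3 differed by 0.55 ± 0.08 (limma adjusted p = 0.000146), with means without sheep 209 of 6247 ± 1183 in granulosa (SD, n = 8) and 4009.6 ± 782 in theca (n = 9). NSD1 differed by 0.20 ± 0.05 (limma adjusted p = 0.006) and was higher in 9 of 9 sheep. SETD2, which trimethylates H3K36, did not pass, with a log2 difference of 0.04 and a 95% interval of -0.07 to 0.15. SMYD2, which also methylates non-histone proteins, went the other way, at -0.39 ± 0.10 (limma adjusted p = 0.00686), and was lower in granulosa in 8 of 9 sheep. ASH1L was at -0.14 ± 0.06 and was called only without sheep 209, at -0.17 ± 0.05 (limma adjusted p = 0.0167).

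Among the 8 genes of the H3K4 methyltransferase list, 3 rose and 3 fell in granulosa. SETD7, which monomethylates H3K4 and many other proteins, had control granulosa counts of 373, 331, 458 and 231 in sheep 224, 244, 246 and 268, and control theca counts of 745, 699.9, 523 and 538, with 680.1 in sheep 139. In the prenatal T sheep 209, 210, 230, 276 and 315 it was at 633, 296, 209, 183 and 284 in granulosa and at 1518, 578, 512, 430.0 and 686 in theca. Sheep 209 was the highest of its group in both layers, and the theca value was the higher one in 9 of 9 sheep. The log2 difference was -1.05 ± 0.11 (limma adjusted p = 1.2e-05).

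KMT2D, an enhancer H3K4 methyltransferase, was higher in granulosa by 0.40 ± 0.07 (limma adjusted p = 0.000351). Its close relative KMT2C, which occupies the same kind of complex, did not pass, at 0.01 with an interval of -0.11 to 0.12. SETD1A and SETD1B, which carry out most trimethylation of H3K4 at promoters, were higher by 0.22 and 0.21, each in 8 of 9 sheep. KMT2A, which acts at homeobox gene promoters, fell by 0.17 in 8 of 9 sheep. KMT2E, a reader with little known methyltransferase activity, fell by 0.18 in 9 of 9. With 1 sheep left out at a time, the call of SETD1A was lost 4 times and that of KMT2A 2 times. SMYD3 was at -0.12 with an interval of -0.44 to 0.20, the widest spread of this list.

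DOT1L, the H3K79 methyltransferase, was higher in granulosa in 9 of 9 sheep. Its mean without sheep 209 was 1634 ± 284 in granulosa (SD, n = 8) and 1169.5 ± 201 in theca (n = 9). The log2 difference was 0.42 ± 0.08 with all sheep (limma adjusted p = 0.000808).

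Of the 7 H3K9 methyltransferases, 4 rose in granulosa and none fell. SUV39H1 and SUV39H2 trimethylate H3K9 in pericentric heterochromatin. SUV39H1 was at 267, 242, 207 and 304 in control granulosa of sheep 224, 244, 246 and 268, and at 192, 115, 129.9 and 217 in theca of the same sheep, with 212 in sheep 139. In prenatal T granulosa of sheep 209, 210, 230, 276 and 315 it was at 119.7, 264, 291, 327 and 229, and in theca at 49.3, 152, 192, 164 and 179. The groups overlapped across animals, while within animals granulosa was higher in 9 of 9, by 0.74 ± 0.11 (limma adjusted p = 0.000168). SUV39H2 was higher by 0.56 ± 0.10 (limma adjusted p = 0.000478), also in 9 of 9 sheep.

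SETDB1, which silences retroelements with TRIM28, and its relative SETDB2 were higher in granulosa by 0.22 ± 0.05 and 0.34 ± 0.07. EHMT1 and EHMT2, which dimethylate H3K9 in euchromatin, did not pass, with intervals of -0.07 to 0.17 and -0.11 to 0.17. Nor did PRDM2, at -0.02 with an interval of -0.14 to 0.10.

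The PRC2 genes did not move together. EZH2, the catalytic subunit typical of dividing cells, was at 1337, 1430.4, 1046 and 1529 in control granulosa of sheep 224, 244, 246 and 268, and at 1079, 755, 615 and 1149 in their theca, with 975 in sheep 139. In prenatal T sheep 209, 210, 230, 276 and 315 it was at 367, 1128, 1513, 1720.2 and 1008 in granulosa and at 276, 737, 799.6, 1002 and 644 in theca. Sheep 209 was lowest in both layers, and granulosa was higher in 9 of 9 sheep, by 0.64 ± 0.07 (limma adjusted p = 2.87e-05).

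EZH1, the catalytic subunit that persists in resting cells, was at 953, 1069, 859 and 796 in control granulosa in the same order, and at 1133, 1612, 1028 and 963 in theca, with 1505 in sheep 139. In prenatal T animals it was at 1865, 981, 668, 667 and 679 in granulosa and at 2005, 1225, 975, 892 and 1290.2 in theca. Sheep 209 was highest in both layers, and theca was higher in 9 of 9 sheep, with a log2 difference of -0.41 ± 0.08 (limma adjusted p = 0.00105). The log2 ratio of EZH2 to EZH1 was therefore higher in granulosa in 9 of 9 sheep, by 0.52 to 1.57. SUZ12 was higher in granulosa by 0.18 ± 0.06 and EED did not pass, with an interval of -0.11 to 0.18.

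**Figure D2:**
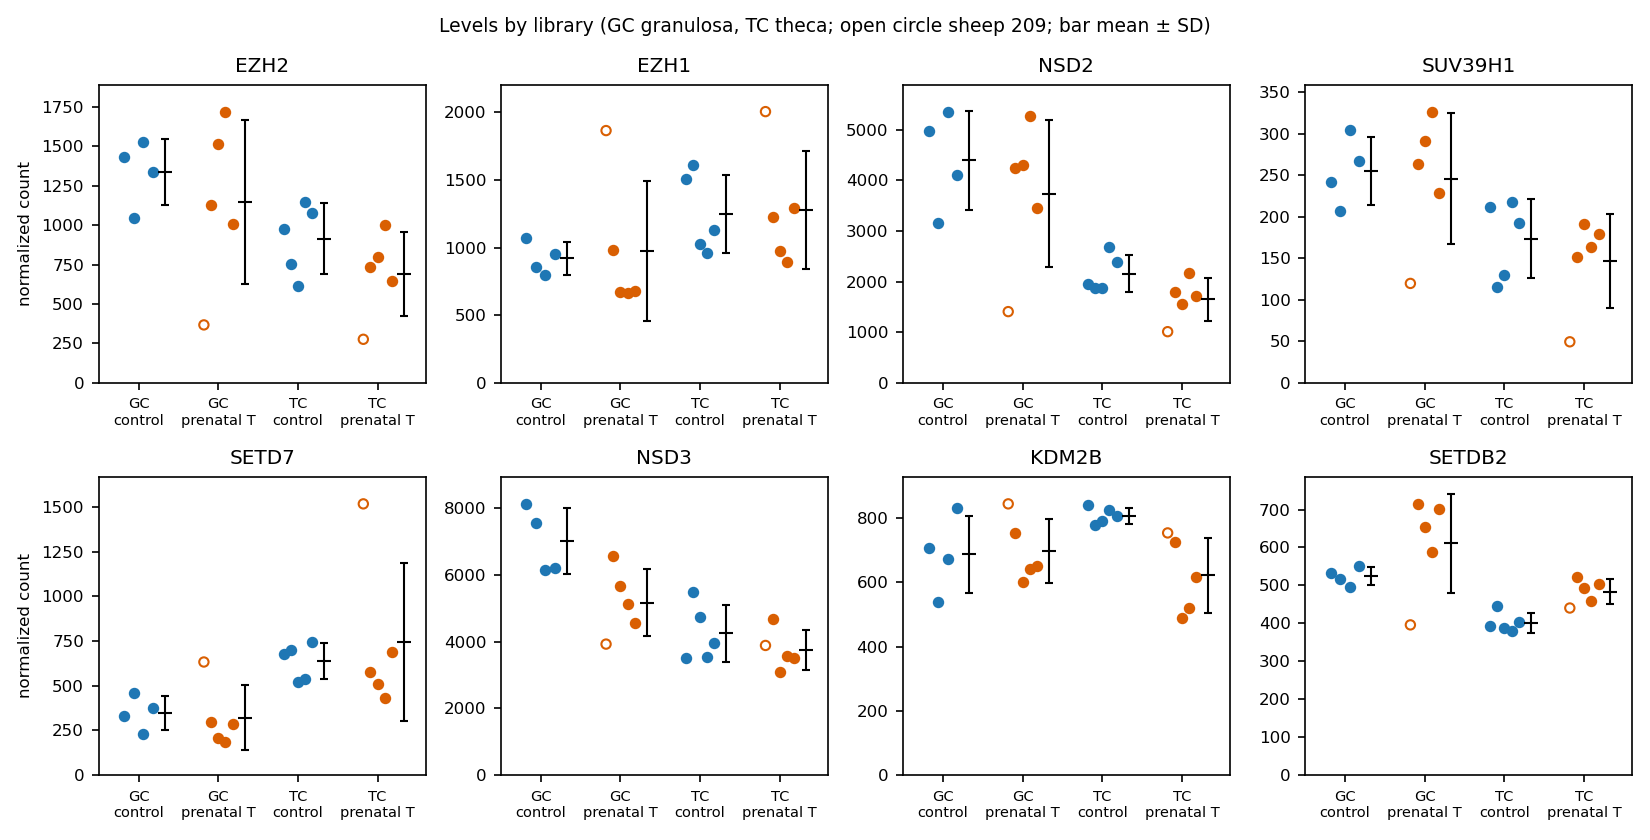
Normalized counts of 8 genes by group, 1 point per library, with the mean and SD as bars; GC is granulosa, TC is theca, and the open circle is sheep 209. NSD2, EZH2 and SUV39H1 have higher means in granulosa and SETD7 and EZH1 in theca, with sheep 209 at the low or high end of its group for these 5 genes.

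Among the H3K4 demethylases, KDM1A of the CoREST complex was higher in granulosa in 9 of 9 sheep, by 0.26 ± 0.05 (limma adjusted p = 0.0014). KDM5B, which removes H3K4 trimethylation, was higher by 0.24 ± 0.05 (limma adjusted p = 0.00149). KDM5A and KDM5C differed by 0.10 and 0.11 and did not pass with all sheep, and KDM5C passed without sheep 209, at 0.12 (limma adjusted p = 0.0243).

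KDM1B, which supports the setting of methylation imprints in oocytes, was at 267, 289, 223 and 189 in control granulosa of sheep 224, 244, 246 and 268, and at 299, 286, 301 and 317 in their theca, with 309.9 in sheep 139. In sheep 209, 210, 230, 276 and 315 it was at 1606, 252, 209, 202 and 252 in granulosa and at 939, 292, 291, 302 and 332 in theca. Sheep 209 exceeded all others in both layers and was, within its pair, higher in granulosa. The difference did not pass with all sheep, at -0.25 ± 0.14, and passed without sheep 209, at -0.37 ± 0.09 (limma adjusted p = 0.00389).

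The H3K9 demethylases KDM3A, KDM4B and KDM4C were higher in granulosa by 0.23, 0.20 and 0.18, in 9, 9 and 8 of 9 sheep. KDM3B did not pass, with an interval of -0.09 to 0.14. KDM4A was at -0.08 with all sheep and at -0.13 ± 0.04 without sheep 209 (limma adjusted p = 0.0236). The KDM2 genes, whose products bind unmethylated CpG islands, did not pass: KDM2A was at 0.09 ± 0.05 and KDM2B at -0.01 ± 0.09.

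Both H3K27 demethylases were at the edge of the threshold. KDM6A, the X-linked enzyme found in KMT2C and KMT2D complexes, was at 0.14 (limma adjusted p = 0.0461), and at 0.11 without sheep 209 (0.077). KDM6B, an inducible enzyme, was at -0.21 (limma adjusted p = 0.0497), and at -0.20 without sheep 209 (0.0624). KDM7A, which acts on H3K9 and H3K27, did not pass, at -0.02 with an interval of -0.15 to 0.11.

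Markers of other cells and of division moved with the layers. The mean log2 level of 12 proliferation markers was higher in granulosa in 9 of 9 sheep, by 0.57 to 1.70. The mean of the epithelial markers was higher in granulosa in 9 of 9 sheep, by 0.17 to 2.23, and that of the oocyte markers in 8 of 9, with a median difference of 3.07. The theca, endothelial, smooth muscle and immune marker means were lower in granulosa in 9 of 9 sheep. Granulosa markers averaged higher in granulosa in 8 of 9 sheep, by 1.63 to 2.59. In sheep 209 that difference was -0.71, so counts over 9 sheep include a pair whose granulosa markers averaged higher in theca. FSHR and AMH were at 0 in both libraries of that pair, and the inhibin gene INHA at 8.05 in granulosa and 7.59 in theca. The part of these markers in the differences of the 41 genes was not tested. Within 1 treatment group fewer genes passed: 13 of the 41 in the 4 control sheep, beside 47.4% of 14746 genes, and 12 in the 5 prenatal T sheep, beside 33.8% of 15271.

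Partner genes from lists of the same pathways were read in the same fit, where 56.7% of genes passed. By direction, 28.8% were higher and 27.8% lower in granulosa, with a median of 0.03 over all genes. Of 12 COMPASS subunits, which are partners of some or all of the H3K4 methyltransferases, 9 were higher in granulosa and none lower, with a median of 0.30. They included PAGR1, a KMT2C and KMT2D partner, at 0.57 ± 0.07, NCOA6, a coactivator of the same complexes, at 0.37 ± 0.05, and HCFC1, a SETD1 partner, at 0.42 ± 0.08. Of 18 genes of the Polycomb complex PRC1, which reads H3K27 methylation, 2 were higher and 8 lower, with a median of -0.16. The chromobox gene CBX6 was at -1.42 ± 0.08 and PHC3, a polyhomeotic subunit, at -0.42 ± 0.07.

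Of 9 PRC2 accessory genes, 4 were higher in granulosa and 2 lower, with RBBP4, a histone chaperone subunit, and LCOR both at 0.33. Among the readers and partners of H3K9 methylation, 3 of 12 were higher and 2 lower: CBX3, an HP1 protein, was at 0.24, MPHOSPH8, a subunit of the HUSH silencing complex, at 0.43, and the chromatin remodeller ATRX at -0.22. The partners of KDM1A were split, with 3 of 8 tested higher and 3 lower. Its scaffold RCOR1 was at 0.53 ± 0.06 and the alternative scaffold RCOR2 at -1.15 ± 0.23, and the deacetylase HDAC2 was at 0.41 ± 0.05 while HDAC1 was at -0.47 ± 0.07.

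Of 15 tested lysine methyltransferases outside the 41 genes, 6 were higher and 2 lower. KMT5C, an H4K20 methyltransferase, was at 0.66 ± 0.10, SETD3, an actin histidine methyltransferase, at 0.48 ± 0.11, and MECOM, a PRDM-family transcription factor, at -1.96 ± 0.41. Of 8 other demethylases, 3 were higher and none lower, among them PHF8 at 0.41 and RIOX1 at 0.44. In the methyl donor cycle 2 of 9 were higher and 3 lower: AHCY, which clears S-adenosylhomocysteine, was at 0.82 ± 0.08 and MTR, the methionine synthase, at 1.05 ± 0.18. All partner genes named here had a limma adjusted p under the threshold of 0.05 with all sheep and again without sheep 209.

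In granulosa cells, no histone methylation gene passed the test of prenatal T against control. Of all 14724 genes tested, 0% were called by limma and 0% by edgeR, and the smallest adjusted p of limma was 0.875. DESeq2 called 16 genes, none of them among the 41. An unadjusted limma p under 0.05 was reached by 4 of the 41 genes, all lower in prenatal T, beside 622 genes or 4.22% of all. The genes below are therefore given as values, not as changes. Below 0 lay 24 of the 41 differences, with a median of -0.05 against -0.01 over all genes. Without sheep 209, 32 of 41 were below 0, and the median was -0.12 against -0.01 over all genes. The shares of all genes on either side of 0 are not given here. In that set 10 of 41 reached an unadjusted p under 0.05, beside 7.01% of 14460 genes. The direction of the 41 genes as a set was not tested. With sheep 209 kept, the sign of the median turned without control sheep 244: 21 of 41 were above 0, the median was 0.04, and 0 of 41 reached an unadjusted p under 0.05, beside 1.86% of genes. Leaving out any 1 sheep gave from 0 of 41 without sheep 244 to 10 of 41 without sheep 209 at that level. The shares of all genes in these 2 sets were 1.86% and 7.01%. Without sheep 209 and 1 of sheep 224, 230, 276 or 315 it was 5 of 41, beside 5.17% to 6.27% of genes. Counts for the remaining pairs with sheep 209 are not listed in this paragraph.

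SETD1B had the smallest unadjusted p in granulosa. It was at 2350.5, 2669, 2341 and 2353 in control sheep 224, 244, 246 and 268 and at 2185, 2155, 1780.0, 1755 and 1912 in prenatal T sheep 209, 210, 230, 276 and 315. The groups did not overlap, as held for 1.69% of genes in that direction, and the log2 difference was -0.31 ± 0.11. None of the 41 was wholly higher in prenatal T, as held for 0.72% of genes. EHMT2 likewise did not overlap, at 2235, 2167, 1931 and 1995 in controls against 1663, 1876, 1726, 1878 and 1426 in prenatal T, a difference of -0.29 ± 0.11.

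NSD3 was at 6212, 8127, 7562 and 6149 in control granulosa and at 3924, 6566, 5667, 5129 and 4561 in prenatal T granulosa, in the same order of sheep. Sheep 210 lay within the control range, and the difference was -0.45 ± 0.17. KDM5B was at 5263, 5616, 5623 and 4764 against 4751, 5038, 3579.6, 3829 and 3874, a difference of -0.34 ± 0.14 with sheep 210 again inside the control range. KMT2A was at 4753, 5412, 4293 and 3881 in controls and at 4138, 4119, 3767, 3463 and 3234 in prenatal T, overlapping groups with a difference of -0.29 ± 0.13. SETD1A differed by -0.42 ± 0.22 with all sheep and by -0.25 ± 0.15 without sheep 209.

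KDM6B changed its sign with sheep 209. It was at 1401, 1569, 1396 and 1201 in control granulosa and at 1317, 782, 701 and 1059.8 in prenatal T sheep 210, 230, 276 and 315, while sheep 209 had 7791. The difference was 0.05 ± 0.64 with all sheep and -0.57 ± 0.20 without sheep 209 (limma adjusted p = 0.704). KMT2C was at 6501, 7388, 6032 and 5599 in controls and at 8674, 5925, 4705, 4578 and 4851 in prenatal T, a difference of -0.19 ± 0.20, or -0.35 ± 0.13 without sheep 209, the highest of all 9.

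SETDB2 was the only one of the 41 genes with a higher level in prenatal T granulosa at an unadjusted p under 0.05, and only without sheep 209. It was at 551, 534, 517 and 496 in controls and at 715, 653, 588 and 702 in prenatal T sheep 210, 230, 276 and 315, with 396 in sheep 209. Without that animal the groups did not overlap, as held for 1.15% of genes in that direction, and the difference was 0.34 ± 0.11 (limma adjusted p = 0.704). In the same set KDM3B and KDM4B did not overlap either, both lower in prenatal T, beside 2.7% of genes. Of the PRC2 genes, EZH2 was at -0.01 and SUZ12 and EED at 0.14 and 0.13 without sheep 209.

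**Figure D3:**
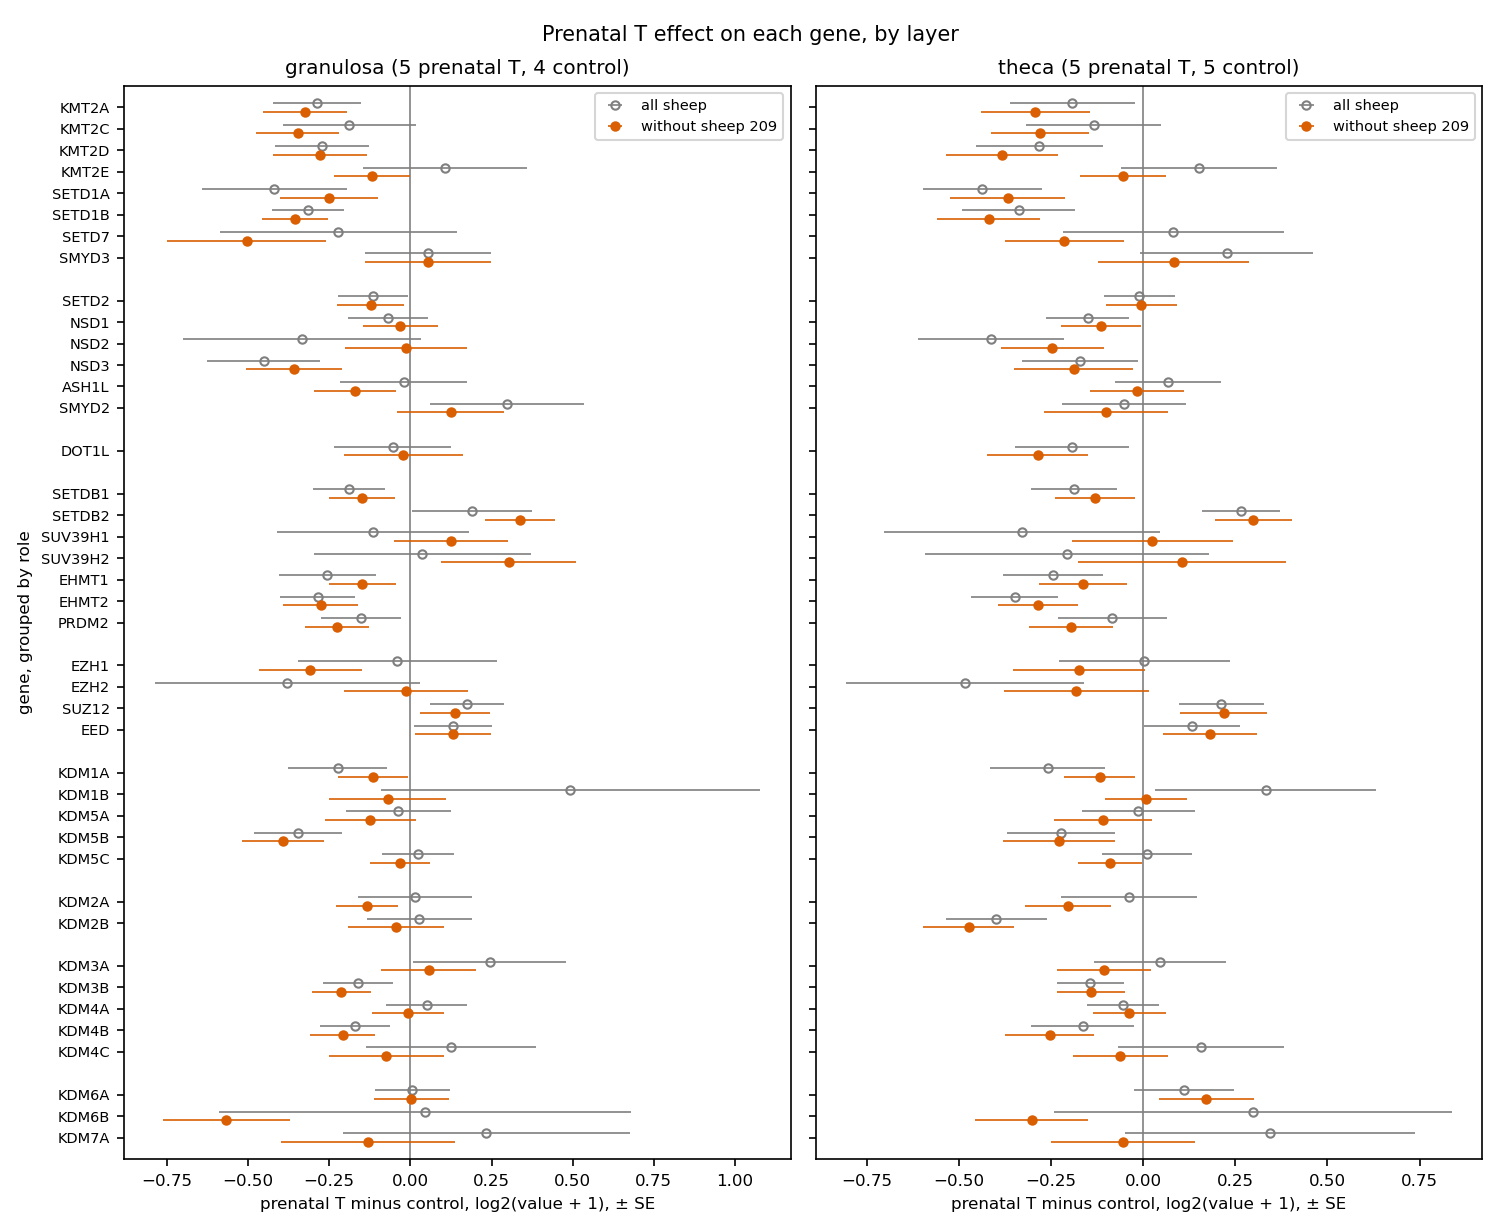
Prenatal T minus control in log2(value + 1) for each of the 41 genes in granulosa (left) and theca (right), with SE. Open grey points are limma estimates with all sheep and filled points those without sheep 209. None passed the adjusted threshold. Without sheep 209, 32 points in granulosa and 33 in theca lie below 0, where the median over all genes was -0.01 in each layer. The share of all genes below 0 is not given. The direction of the 41 genes as a set was not tested.

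In theca cells, again no gene passed, neither of the 41 nor of the 15492 tested (0% called by limma and by edgeR, smallest limma adjusted p 0.644), while DESeq2 called 7 genes, none of them among the 41. An unadjusted p under 0.05 was reached by 4 of the 41 genes, 1 higher and 3 lower in prenatal T, beside 1192 genes or 7.69% of all. Leaving out any 1 sheep gave 2 to 6 of 41. The shares of all genes in these sets are not given here, apart from the set without sheep 209. Without sheep 209, 33 of 41 were below 0, with a median of -0.13 against -0.01 over all genes. The share of all genes below 0 is not given here, and the direction of the set was not tested. An unadjusted p under 0.05 was then reached by 6 of 41, beside 12.1% of 15304 genes. That count moved with single animals: without sheep 209 and 210 it was 13 of 41, 2 higher and 11 lower, beside 16% of genes, and without sheep 209 and 230 it was 3 of 41 beside 7.35%. Without sheep 209 and 246 it was 9 of 41 beside 14.3%, and without sheep 209 and 268 it was 3 of 41 beside 10.2%. The remaining pairs with sheep 209 are not listed in this paragraph.

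KDM2B, whose product brings the PRC1 variant with PCGF1 to CpG islands, was at 806, 777, 790.0 and 824 in control theca of sheep 224, 244, 246 and 268 and 839.9 in sheep 139. In prenatal T sheep 209, 210, 230, 276 and 315 it was at 754, 726, 489.8, 521 and 617. The groups did not overlap, as held for 0.981% of genes in that direction, and the control values lay close together. None of the 41 was wholly higher in prenatal T theca with all libraries, as held for 1.28% of genes. The difference was -0.40 ± 0.14, and -0.47 ± 0.12 without sheep 209 (limma adjusted p = 0.371).

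EHMT2 was at 2101, 2016, 1926 and 2289 in control theca and 2119.7 in sheep 139, and at 1378, 2058, 1482, 1663 and 1694 in prenatal T theca. Sheep 210 lay within the control range, and the difference was -0.35 ± 0.12. SETD1A was at 1119, 1383, 1045 and 1237 with 1015 in sheep 139, against 703, 1130.2, 704, 781 and 1023, a difference of -0.44 ± 0.16. SETD1B differed by -0.34 ± 0.15 and KMT2D by -0.28 ± 0.17, and by -0.42 ± 0.14 and -0.38 ± 0.15 without sheep 209.

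SETDB2 was at 404, 446, 386 and 379.9 in control theca and 392 in sheep 139. In prenatal T theca it was at 440.3 in sheep 209 and at 523, 492, 459 and 504 in sheep 210, 230, 276 and 315. Without sheep 209 the groups did not overlap, as held for 2.53% of genes in that direction, and the difference was 0.30 ± 0.10 (limma adjusted p = 0.371). NSD2 was at -0.41 ± 0.20 with all sheep and at -0.25 ± 0.14 without sheep 209. KDM6B in theca was at 869 to 1532 in 4 prenatal T sheep, at 9476 in sheep 209 and at 1264 to 1647 in controls.

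Control sheep 244 was high for many of these genes, and its libraries enter both prenatal T comparisons. Setting sheep 209 aside, it exceeded all other libraries of its layer for 22 of the 41 genes in granulosa and 23 in theca. The shares of all genes were 15.07% and 15.72%. Among the 41, 19 were above in both layers, including KMT2A, KMT2C, KMT2D, SETD1A and SETD1B. The share of all genes above in both layers was not computed. The part of sheep 244 in the differences was not tested beyond leaving it out. Without sheep 209 and 244 the median of the 41 genes was -0.08 in granulosa and -0.11 in theca, with 25 and 30 genes below 0. The share of all genes below 0 in that set is not given here. An unadjusted p under 0.05 was then reached by 4 and 5 genes, beside 4.02% and 10.0% of all.

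**Figure D4:**
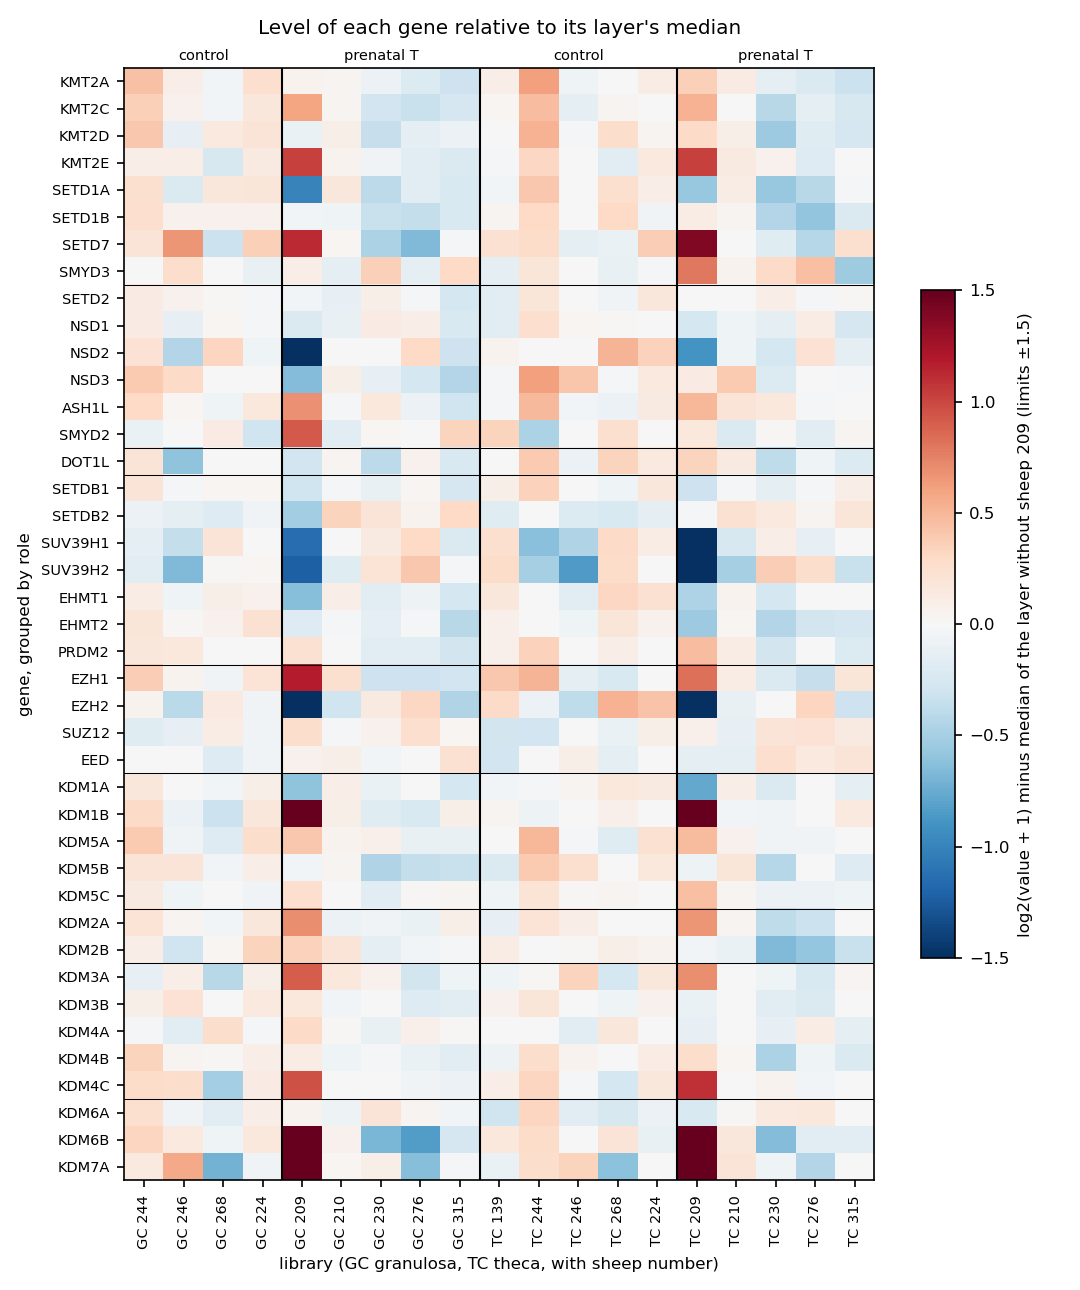
Level of each of the 41 genes (rows) in each library (columns, GC granulosa and TC theca with the sheep number), as log2(value + 1) minus the median of the layer without sheep 209, drawn within limits of 1.5. Sheep 209 has the deepest colours in both layers, and sheep 244 is above its layer's other libraries for 22 genes in granulosa and 23 in theca when sheep 209 is set aside.

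Sheep 209 lay outside the other libraries for many of the 41 genes in both layers, as it did for many genes of the whole table. For 18 of the 41 genes in granulosa and 15 in theca its value was above every other library, and for 10 and 10 below, beside 32.88% above and 32.1% below among all genes in granulosa and 30.49% and 29.96% in theca. The 13 genes above in both layers were ASH1L, EZH1, KDM1B, KDM2A, KDM3A, KDM4C, KDM5C, KDM6B, KDM7A, KMT2C, KMT2E, PRDM2 and SETD7. The 8 genes below in both were EHMT1, EZH2, KDM1A, NSD2, SETD1A, SETDB1, SUV39H1 and SUV39H2. The shares of all genes above or below in both layers were not computed. Its KDM6B count was 7791 in granulosa against 701 to 1569 elsewhere, and 9476 in theca against 869 to 1647.

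The difference of the prenatal T effects between the layers was tested within animals, and 0% of 16169 genes were called by limma or by edgeR, with 755 genes at an unadjusted limma p under 0.05 (4.67%). DESeq2 called 20 genes, none of them among the 41. KDM2B was 1 of 2 of the 41 genes at that level, with an effect higher in granulosa than in theca by 0.41 ± 0.14 (limma adjusted p = 0.96). The other was KDM3A, at 0.22 ± 0.10. Without sheep 209 the genes were KDM2B, at 0.42 ± 0.14, and DOT1L, at 0.30 ± 0.10, beside 8.34% of genes. DOT1L was then at -0.02 in granulosa and -0.29 in theca, with a limma adjusted p of 0.536 for the difference.

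Among the partner genes PCGF2 and CBX6, both of PRC1, and NCOA6 were named by the rule for the prenatal T comparisons. PCGF2 was at -0.66 ± 0.20 in granulosa and at -0.54 ± 0.18 in theca. Without sheep 209 it was at -0.51 ± 0.14 and -0.38 ± 0.12, and CBX6 in theca at -0.35 ± 0.12. NCOA6 in theca was at -0.32 ± 0.13. None of them passed adjustment over all genes, as limma called none in either layer.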

How the data were processed

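Granulosa and theca RNA of 10 sheep was sequenced after ribosomal depletion, with a stranded library kit per the labels' protocols. Per the submitters' processing notes the tools included STAR 2.6.0c, featureCounts (Subread 1.6.1), FastQC 0.11.5 with MultiQC 0.9, and DESeq2. The genome build and the counter's strand setting are not given in the sources used here. The deposited signal per gene and library is the authors' gene count after division by a library size factor. Within each of the 19 libraries 100% of values were whole multiples of what 1 read is worth, within a relative tolerance of 1e-06, which gave back the reads. The table had 0 value columns without a sample. The labels list 20 samples.

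The test was limma 3.58.1 under R 4.3.3, with its mean-variance trend, applied to log2(value + 1), which understates changes of low genes. A gene entered when 5 or more of the fitted libraries had a value of 10 or more. Tests were two-sided, with Benjamini-Hochberg adjustment over all genes at 0.05. Prenatal T was compared in each layer alone. The layers, and the difference of the effects, were compared in the 9 sheep with both layers, with the sheep as a block. Pairing by sheep is given by the labels. Once group means were removed, the layers of a sheep correlated at r = 0.42 to 0.80 across genes, and its own other layer matched best in 9 of 9. No 2 libraries of a group were repeats (36 pairs). edgeR 4.0.16 and DESeq2 1.42.0 were run on recovered reads, and other scalings, filters, pseudocounts and left-out sheep were tried. The fits were also run on simulated counts with known changes, drawn without differences between animals and without an animal set apart. The outcome is not given here.

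The 41 genes, partner lists and marker lists were chosen with earlier results of these data known. Values per library were given for the 6 genes of largest called layer difference each way, the 6 of smallest p in each prenatal T comparison, the 4 of smallest p in the difference of effects and 14 well-known enzymes. Of the partner lists, those 2 of smallest p were named per list and per prenatal T comparison. The rule was applied with and without sheep 209, and where it gave many genes some are given by their difference alone. A few partner genes picked by this rule are not reported here. Promoter and protein sequences were not used here.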

Additional observations from a re-analysis of the deposited data

Results flagged for a closer look

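Each of the 41 genes was screened in each of the 4 groups for a sample lying far from the rest of its group, by the gap to its nearest neighbour over the group's range (Dixon's critical values). Of 164 gene and group combinations, 25 were flagged, and chance flags about 1 in 20. That is 15.2%, beside 14.8% of the 65040 such combinations over the genes that reached 10 in 5 or more libraries, so the 41 genes were flagged about as often as other genes. Over all genes 64.9% of the flags fell on sheep 209. Sheep 209 gave 19 of the 25 flags, and 7 genes were flagged for it in both layers. The share of all genes flagged for it in both layers was not computed. No explanation was tested.

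In prenatal T granulosa sheep 209 was far above the other 4 sheep for KDM6B, the inducible H3K27 demethylase, at 7791 against 1317 in the next highest sheep. KDM7A was at 2537, KDM1B at 1606, KDM3A at 2381, KDM4C at 1063 and KDM2A at 3837. Among the writers, KMT2E was at 6861, EZH1 at 1865 and SETD7 at 633.

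In prenatal T theca sheep 209 was far above the others for KDM6B at 9476, KDM7A at 2929, KDM1B at 939, KDM3A at 1709, KDM4C at 1002, KDM5A at 2469 and KDM5C at 3237. KMT2E was at 7428 and SETD7 at 1518. SUV39H1 was far below, at 49.3 against 152 in the next lowest sheep. The genes flagged for sheep 209 in both layers were KMT2E, SETD7, KDM1B, KDM3A, KDM4C, KDM6B and KDM7A.

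The other 6 flags fell on other sheep. Control sheep 244 was far above its group for SETD1B in granulosa, at 2669, and in theca for KMT2A at 6760.4, KMT2C at 8042 and PRDM2 at 2026. Control sheep 268 was far below its granulosa group for KMT2E, at 2844. Prenatal T sheep 230 was far above its theca group for SETD2, at 4277.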

How the results depend on the processing

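Between layers 25 of the 41 genes were called in 9161 called genes. Leaving out each sheep in turn gave 22 to 27 of the 41 and 8331 to 10000 genes, and 21 of the 25 calls held each time. Those of KDM6A, KDM6B, KMT2A and SETD1A did not. Without the replicate block (the pairing by animal), 5352 genes and 9 of the 41 were called. Control sheep alone gave 13 of the 41, and prenatal T sheep alone gave 5158 genes and 12 of the 41. The calls of DOT1L, KMT2D, NSD2, NSD3, SETD7 and SUV39H1 held under each of 20 alternatives checked gene by gene. No called gene of the 41 changed its sign under them. Alternatives that leave out sheep 209 together with another choice were not part of this check. For the prenatal T comparisons, limma called 0 genes in either layer without any 1 sheep. DESeq2 called 16 genes in granulosa, 7 in theca and 20 for the difference of effects, and without sheep 209 32, 58 and 31. None of the 41 was among them. With both layers in 1 model and a replicate block, 1 gene was called in granulosa and 4 without sheep 209, none of them among the 41. The block changed no other call of the prenatal T comparisons. In each case the cause was not tested.

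Of the 41 differences, those above 0 fell from 17 to 9 in granulosa and from 15 to 8 in theca without sheep 209, and without sheep 244 alone 21 in granulosa and 18 in theca were above 0. The shares of all genes above 0 in these sets are not given here. Signs were followed for all 41 genes between layers and for the genes named by rule in the other comparisons. Alternatives that leave out sheep 209 together with another choice were again not included. Of the differences followed, 7 changed sign, and none of the 7 had passed the test. KDM6B in granulosa, prenatal T minus control, was 0.05 with all sheep, -0.0219 with scaling to total reads and -0.0238 without sheep 268. Leaving out 1 sheep at a time it ranged from -0.566 without sheep 209 to 0.302 without sheep 276, and it was 0.755 with edgeR and 0.765 with DESeq2. Between layers KMT2C was -0.0124 in prenatal T sheep alone, -0.0121 without sheep 224 and -0.00648 without sheep 230. Leaving out 1 sheep at a time it ranged from -0.0180 without sheep 246 to 0.0316 without sheep 276, and it was 0.0646 with scaling to total reads. EHMT2 was -0.000369 in controls alone. With 1 sheep left out, KDM3B ranged from -0.00146 without sheep 209 to 0.0517 without sheep 315, and it was 0.0832 with scaling to total reads. PRDM2 was 0.0390 with scaling to total reads, 0.00409 with edgeR and 0.0144 in controls alone, and with 1 sheep left out it ranged from -0.0476 without sheep 246 to 0.00220 without sheep 209. KDM7A was 0.0397, 0.00498 and 0.0322 under the same 3 settings, and it ranged from -0.0560 to 0.00417 without the same single sheep. KDM2B was 0.000545 with TMM, 0.0534 with scaling to total reads, 0.0182 with edgeR, 0.177 in prenatal T sheep alone and -0.234 in controls alone. It was 0.0108 without sheep 244 and 0.0300 without sheep 268, and with 1 sheep left out it ranged from -0.0435 without sheep 276 to 0.0630 without sheep 246. The lowest normalized count of any of the 41 genes in any library was 49.3, for SUV39H1 in theca of sheep 209. The alternatives that leave out sheep 209 together with another choice were added after the data were seen.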

Other observations

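Levels of several genes were set beside the mean of the 12 proliferation markers across sheep within a layer, without sheep 209 and with both treatment groups together. These relations were looked for after the values had been seen. Of 82 relations, 0 passed Benjamini-Hochberg adjustment, by Pearson's r or by Spearman's rho. SUV39H2 in granulosa had r = 0.83 (exact permutation p = 0.0026, adjusted 0.0883) and rho = 0.95 (p = 0.0011, adjusted 0.0935) over 8 sheep, and r = 0.67 without the 2 sheep farthest from the median. In theca SUV39H2 had r = 0.79 (exact permutation p = 0.0095, adjusted 0.124). SETD7 in granulosa had r = -0.89 (exact permutation p = 0.0035, adjusted 0.0883) and rho = -0.81 (p = 0.022, adjusted 0.255), with r = -0.76 without those 2 sheep, while in theca it had r = -0.28 (exact permutation p = 0.461). SUV39H1 in theca had r = 0.87 (exact permutation p = 0.0033, adjusted 0.0883) and rho = 0.85 (p = 0.0061, adjusted 0.235) over 9 sheep, with r = 0.78 without the 2 farthest. In granulosa SUV39H1 had r = 0.86 (exact permutation p = 0.0081, adjusted 0.124). NSD3 in theca had r = -0.85 (exact permutation p = 0.0043, adjusted 0.0883) and rho = -0.58 (p = 0.108, adjusted 0.443), with r = -0.57 without the 2 farthest. In granulosa it had r = -0.51 (exact permutation p = 0.196).

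The ratios of paralogous enzymes differed between layers in a like direction in most sheep, without a test. Without sheep 209 the log2 ratio of KDM1A to KDM1B was higher in granulosa in 8 of 8 sheep, by 0.37 to 0.85, and in sheep 209 it was lower in granulosa by 0.35. The log2 ratio of NSD2 to NSD1 was higher in granulosa in 9 of 9 sheep, by 0.23 to 1.34.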
